A study of Homo sapiens with 2 samples.

Results

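The genes described here are the cyclins with a letter and a number in their names, the numbered cyclin-dependent kinases (CDKs), the lettered CDK inhibitors, and the 3 retinoblastoma family genes RB1, RBL1 and RBL2. The rule uses symbols and no count, applied after the Entrez numbers of the count table had been matched to symbols. The D cyclins, CDK4 and CDK6 were left out. The rule gave 43 genes of 25702 in the table.

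RNA was sequenced from REH (labelled REH-R), a human cell line of B-cell precursor acute lymphoblastic leukaemia. The PAX5 culture carried PAX5-IRES-GFP under a doxycycline-inducible promoter, and the control culture carried IRES-GFP under the same kind of promoter. Both were given doxycycline at 1 µg/mL for 3 days and sorted for GFP. There was 1 library per group, with 11944765 counts for PAX5 and 10997864 for the control, so no gene could be tested and no difference below has a replicate check. The sources used here do not say whether a line was 1 clone. Ratios are PAX5 over control with an exact 95% interval that covers counting error only.

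The PAX5 transcript was the check of the labels. It had 8319 counts with PAX5 and 2660 in the control, a log2 ratio of 1.54 (1.48 to 1.60), so the control cells contained PAX5 transcript as well. Of 10 B-precursor markers, 8 had over 1000 counts in each library, DNTT at 19209 and 20376 among them. CD3D, CD3G, ELANE and HBA1 had 0 counts in both, while MPO, a myeloid enzyme, had 554 and 1138. The summed level of the 8 myeloid markers was 72.2 CPM (counts per 1000000 of the scaled library) with PAX5 and 141 CPM in the control. That of the 8 T-cell markers was 60.5 and 29.3 CPM, nearly all from BCL11B with 565 and 233 counts (log2 ratio 1.17, 0.95 to 1.40) and CD4 with 154 and 90 (0.67, 0.28 to 1.06). Their part in the differences below was not tested.

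Cyclins are the regulatory subunits of CDKs. Cyclin E with CDK2 acts at the entry into S phase, cyclin A through S and G2 phase, and cyclin B with CDK1 at mitosis. Other pairs, such as cyclin T with CDK9, phosphorylate RNA polymerase II and do not drive the cycle. The Cip/Kip proteins p21, p27 and p57 bind cyclin-CDK complexes, the INK4 proteins bind CDK4 and CDK6, and the pocket proteins hold E2F factors inactive until CDKs phosphorylate them. In B-cell precursors these proteins link signals from the cytokine and pre-B-cell receptors to division or arrest.

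No member differed by a counting bound at or beyond 2-fold. The same rule called 1.34% of all 13532 features with at least 10 counts higher in the PAX5 library and 0.0517% lower. At least 10 counts over both libraries were found for 38 of the 43 members, and these are called measured. Of the other members, CCNA1, CDK15, CDKN2A and CDKN2B had 0 counts in both libraries and CCNI2 had 2 and 1. Among the 38, 12 had intervals above 0 and 6 below, against 18.7% and 16.8% of all features. These are 31.6% and 15.8% of the measured members. At least 1000 counts were found for 24 of the 38, and of these 11 were above 0 (45.8%) and 6 below (25%), where 28.7% and 25% of all features that abundant were. The median log2 ratio of the measured members was 0.01, and that of all features was -0.0066. A ratio within 1.2-fold was found for 32 of 38 members (84.2%) and for 63.8% of the other features. Among features with at least 1000 counts, the shares were 20 of 24 members and 80.6% of the others. The differences of single members given below are small.

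**Figure D1:**
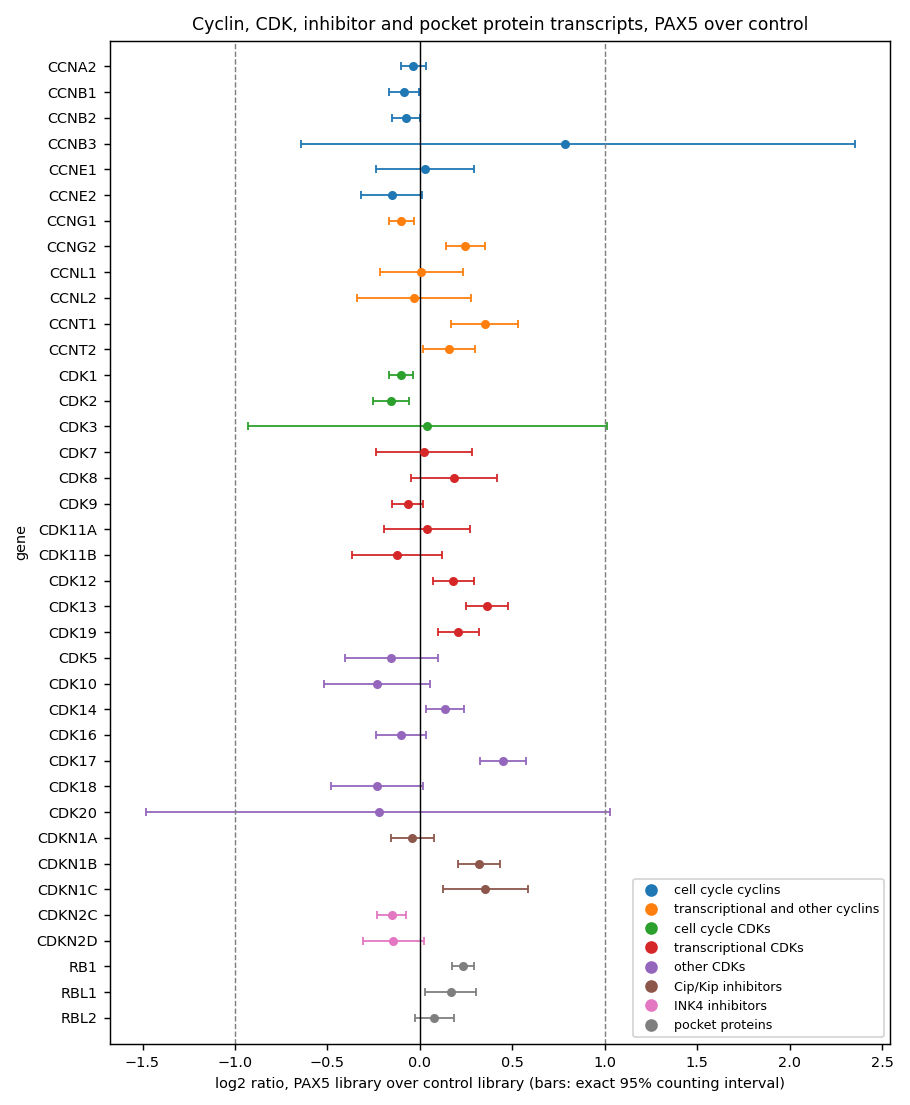
Log2 ratio of each of the 38 measured genes, PAX5 library over control library, coloured by role, with exact 95% counting intervals as bars. Dashed lines mark 2-fold, and no interval lies wholly beyond them. The 12 genes with intervals above 0 reach 0.45 (CDK17), and the 6 below reach -0.16 (CDK2).

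The length of a gene went with its ratio. Over the 35 members with at least 100 counts, Spearman's rho between length and log2 ratio was 0.46, and over all 10672 features of that depth it was 0.45. These points share the same 2 libraries and are not replicates. The 12 members with intervals above 0 had a median length of 4742 bases, and the 6 below had 2380 bases. Each ratio was therefore also centred on the median of features of like length (20 bins). Of the 12 members, 7 kept an interval above 0 after centring, and 3 of the 6 kept one below. CDK8 was then above and CDK16 below, which made 8 and 4 members, against 15.8% and 14.4% of all features with at least 10 counts. At least 1000 counts were found for 24 of the 38 measured members, and no centred share was taken over features that abundant. What produced the trend with length was not tested.

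**Figure D2:**
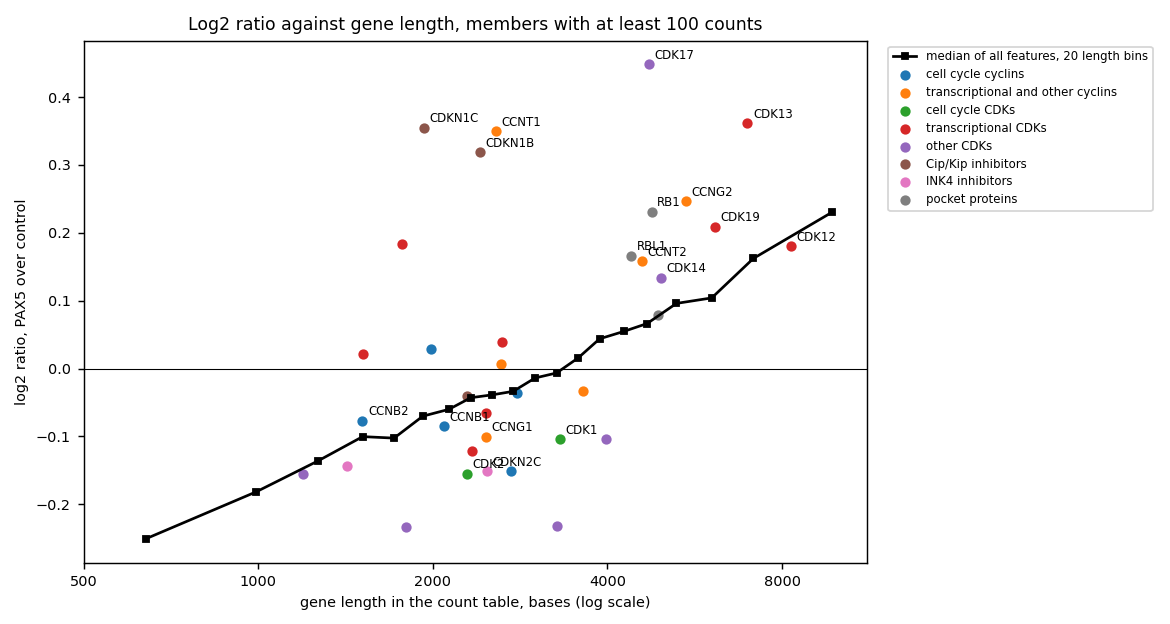
Log2 ratio (PAX5 over control) against gene length in bases on a log scale, for members with at least 100 counts, with names for intervals off 0. The black line joins the medians of all features in 20 length bins and runs from -0.25 to 0.23. CDK12 lies below the line, and CDKN1B, CDKN1C and CCNT1 lie far above it for their length.

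CCNA2, CCNB1 and CCNB2, cyclins of S phase and mitosis, were abundant and nearly equal in the 2 libraries. Of the 6 measured cell cycle cyclins, 2 had intervals below 0 and none above, against 16.8% and 18.7% of all features. Those 2 were CCNB1 and CCNB2, and neither stayed below 0 when DESeq2 size factors were used. The upstream sequences of CCNA2, CCNB1 and CCNB2 are shown because their ratios lay within 0.05 of each other on the log2 scale. That of CDKN1B is shown because this gene was higher in the PAX5 library and its sequence holds a PAX5 core match. Each is the 250 bases before the RefSeq start of the gene (GRCh38.p14), 5′ to 3′ on the strand of the gene. They are chr4:121823884-121824133 on the minus strand for CCNA2, chr5:69166900-69167149 for CCNB1, chr15:59104896-59105145 for CCNB2 and chr12:12717118-12717367 for CDKN1B, the last 3 on the plus strand. Capitals mark CCAAT, the NF-Y motif (ATTGG when on the other strand), and TTTGAA, the only form of the cell cycle homology region searched. They also mark GTCACGC, which is the PAX5 core GCGTGAC read on the other strand.
CCNA2 promoter: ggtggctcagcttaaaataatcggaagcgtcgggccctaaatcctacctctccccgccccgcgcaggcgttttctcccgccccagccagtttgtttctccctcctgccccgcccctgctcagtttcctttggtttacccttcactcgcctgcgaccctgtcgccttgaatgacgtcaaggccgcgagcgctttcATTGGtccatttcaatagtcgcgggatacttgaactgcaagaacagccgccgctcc
CCNB1 promoter: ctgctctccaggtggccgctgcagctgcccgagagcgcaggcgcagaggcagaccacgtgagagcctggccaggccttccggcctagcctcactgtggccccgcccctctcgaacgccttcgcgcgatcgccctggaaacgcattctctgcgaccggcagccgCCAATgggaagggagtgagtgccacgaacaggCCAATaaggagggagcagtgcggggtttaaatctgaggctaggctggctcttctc
CCNB2 promoter: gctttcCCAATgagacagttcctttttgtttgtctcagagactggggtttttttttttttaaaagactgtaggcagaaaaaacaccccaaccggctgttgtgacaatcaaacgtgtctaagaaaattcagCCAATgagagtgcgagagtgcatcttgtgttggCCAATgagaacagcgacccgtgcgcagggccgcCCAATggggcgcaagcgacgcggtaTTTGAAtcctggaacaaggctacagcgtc
CDKN1B promoter: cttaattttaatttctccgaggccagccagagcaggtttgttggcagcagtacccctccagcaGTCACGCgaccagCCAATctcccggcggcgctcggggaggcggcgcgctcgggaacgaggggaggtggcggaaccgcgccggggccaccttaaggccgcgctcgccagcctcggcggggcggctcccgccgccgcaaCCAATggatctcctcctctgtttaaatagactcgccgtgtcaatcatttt

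CCAAT was found on either strand upstream of 17 of the 40 members with a sequence in the RefSeq table (42.5%) and of 37% of all 27305 genes in it, counting every listed start. CCNB2 held it at 4 places, CCNB1 and CDKN1B at 2 each and CCNA2 at 1. TTTGAA was found upstream of 3 members, CCNB2, CDK1 and CDK19 (7.5%), and of 16.1% of all genes. Only these exact letters before each listed start were searched. A gene without a match may therefore still hold a cell cycle homology region. The core GCGTGAC was found upstream of CDKN1B and CDK20, 5% of the members, and of 2.72% of all genes. The log2 ratio was 0.32 (0.21 to 0.43) for CDKN1B and -0.22 (-1.48 to 1.03) for CDK20, which had 12 and 13 counts. Whether PAX5 acts at either match was not tested. No match overlapped another in the sequences shown. A match of letters does not show that a factor binds there.

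CCNA2, which encodes cyclin A2, had 3606 counts with PAX5 and 3436 in the control, a log2 ratio of -0.04 (-0.10 to 0.03). CCNB1, cyclin B1, had 2581 and 2544 counts, a log2 ratio of -0.085 (-0.16 to -0.0054). CCNB2, cyclin B2, had 2820 and 2764 counts, a log2 ratio of -0.08 (-0.15 to -0.0006). The raw counts of all 3 were slightly higher in the PAX5 library, which was also the deeper of the 2, and the signs of the ratios follow from scaling to depth. After centring on length, the B cyclins had intervals that spanned 0, and the ratio of CCNB2 was 0.02. The E cyclins, which activate CDK2 before S phase, were less abundant: CCNE1 had 248 and 226 counts and CCNE2 had 594 and 613. Neither interval left 0 (CCNE1 -0.24 to 0.29, CCNE2 -0.32 to 0.01). CCNB3, a germline-enriched B-type cyclin, had 13 and 7 counts and the highest point ratio of any measured member, 1.73-fold, with an interval from -0.64 to 2.35 on the log2 scale. CCNA1, the testis-type cyclin A, had 0 counts in both libraries, which allows at most 0.252 CPM with PAX5 and 0.272 CPM in the control (3 counts).

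Of the 3 cell cycle kinases, CDK1 and CDK2 had intervals slightly below 0 and CDK3 spanned it. CDK1, the mitotic kinase, had 3853 counts with PAX5 and 3849 in the control, a log2 ratio of -0.10 (-0.17 to -0.04). CDK2, the partner of cyclins E and A, had 1697 and 1756 counts, a log2 ratio of -0.16 (-0.25 to -0.06). Both intervals stayed below 0 after centring on length, at -0.10 for CDK1 and -0.11 for CDK2. CDK3, a weakly expressed relative, had 21 and 19 counts and an interval from -0.93 to 1.01. Summed over this role, the counts were 5571 and 5624.

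Levels per length were ranked among the members only, and genes that the name rule leaves out could be higher. In RPKM (reads per 1000 bases of gene length and 1000000 scaled counts), CCNB2 was the highest member. It stood at 157 with PAX5 (95% counting interval 151 to 163) and 165 in the control (159 to 172). CCNG1 followed at 117 and 125, then CCNA2 at 108 and 111, CCNB1 at 104 and 110 and CDK1 at 97.7 and 105. The order of these 5 was the same in both libraries. The intervals of CCNA2 and CCNB1 overlapped within each library, at 105 to 112 and 99.8 to 108 with PAX5 and 107 to 115 and 106 to 114 in the control. The interval of CDK1 overlapped that of CCNB1 in both, at 94.6 to 101 with PAX5 and 102 to 108 in the control. Here and below, an overlap of such intervals does not show that the levels are equal. The length in the table may not be that of the transcripts the cells make, so the order between genes is less certain than the intervals.

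**Figure D3:**
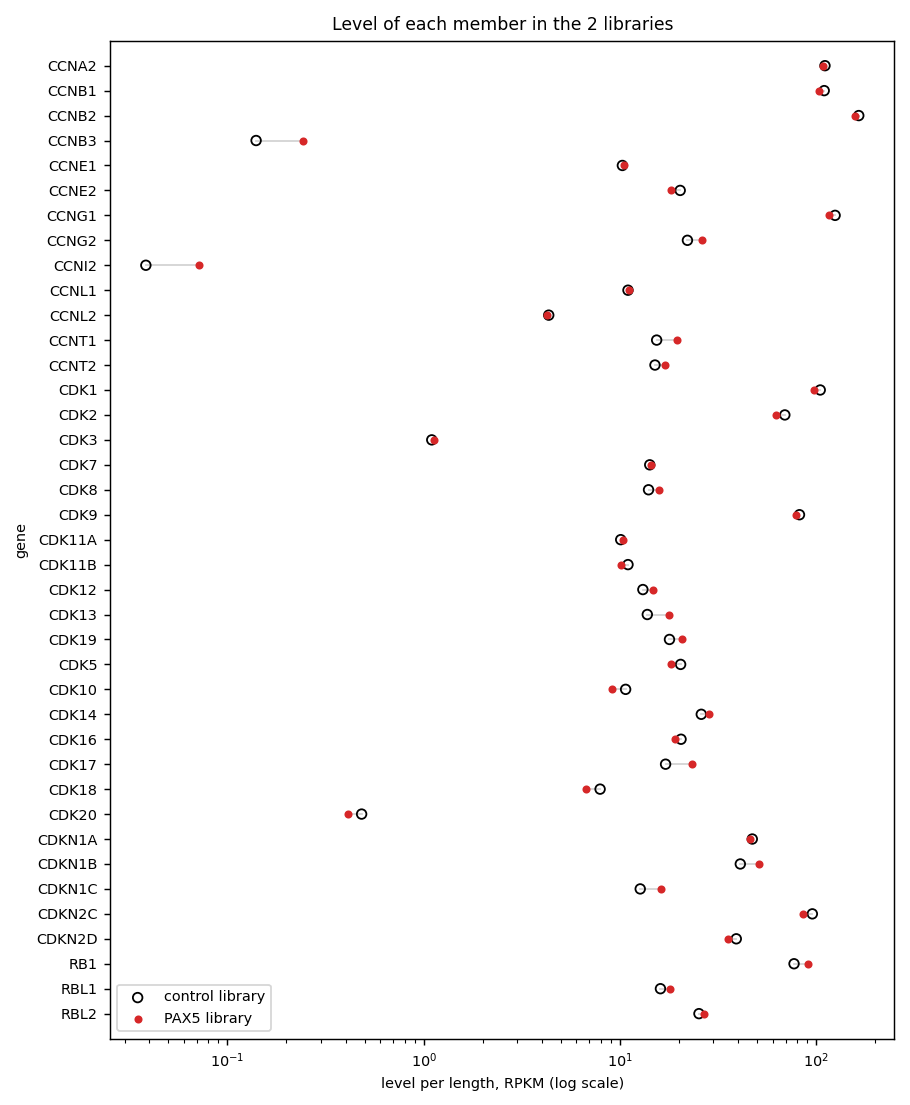
Level per length (RPKM, log scale) of the 39 members with counts in both libraries, open circles for the control library and red points for the PAX5 library. Levels span from 0.0384 for CCNI2 to 165 for CCNB2 in the control library, and most pairs of points nearly coincide.

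The G cyclins, of which the second is known as a FOXO target, differed in opposite directions. CCNG1 had 3426 counts with PAX5 and 3413 in the control, a log2 ratio of -0.10 (-0.17 to -0.03). CCNG2 had 1708 and 1338 counts, a log2 ratio of 0.25 (0.14 to 0.35). The intervals of these 2 genes did not overlap. Centred on length, CCNG1 spanned 0 at -0.06 and CCNG2 stayed above at 0.15.

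Of 10 genes for cyclin T and the transcriptional CDKs, 5 had intervals above 0 and none below, against 18.7% and 16.8% of all features. Of features with at least 1000 counts, which several of the 10 had, 28.7% were above 0 and 25% below. CCNL1 and CCNL2, also cyclins of such kinases, are not among the 10, and both spanned 0. Nor are CCNK and CCNC, partners outside the name rule that also spanned 0. The share thus depends on which genes are grouped. The 10 are not one of the roles summarised below, and of the 8 transcriptional CDKs alone 3 were above 0. After centring on length 3 of the 10 were above, CCNT1, CDK13 and CDK8, against 15.8% of all features with at least 10 counts. CCNT1, cyclin T1 of the elongation factor P-TEFb, had 598 counts with PAX5 and 436 in the control, a log2 ratio of 0.35 (0.17 to 0.53). CCNT2, the other cyclin of that factor, had 921 and 767 counts, a log2 ratio of 0.16 (0.02 to 0.30). Their kinase CDK9 did not share the direction, with 2312 and 2249 counts and a log2 ratio of -0.07 (-0.15 to 0.02). After centring on length CCNT1 stood at 0.39, with its interval above 0, and CCNT2 at 0.09, with an interval that spanned 0. Per length, CDK9 at 78.7 and 82.3 RPKM was several times as abundant as CCNT1 at 19.6 and 15.4.

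CDK12 and CDK13 are close relatives that pair with cyclin K and phosphorylate the polymerase during elongation. CDK13 had 1470 counts with PAX5 and 1063 in the control, a log2 ratio of 0.36 (0.25 to 0.48). CDK12 had 1462 and 1199 counts, a log2 ratio of 0.18 (0.07 to 0.29). They are among the longest members, at 6975 and 8290 bases, and after centring CDK13 kept 0.20 with its interval above 0 while CDK12 turned to -0.05 with an interval that spanned 0. CCNK, their cyclin, had 1450 and 1354 counts and a log2 ratio of -0.0070 (-0.11 to 0.10).

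The Mediator kinases CDK8 and CDK19 pair with cyclin C. CDK19 had 1510 counts with PAX5 and 1214 in the control, a log2 ratio of 0.21 (0.10 to 0.32), and after centring its interval spanned 0 at 0.10. CDK8 had 335 and 274 counts, a log2 ratio of 0.18 (-0.05 to 0.42), and 0.29 after centring, with an interval above 0. Summed, this kinase pair had 1845 and 1488 counts and a log2 ratio of 0.20 (0.11 to 0.30). Their cyclin gene CCNC had 1549 and 1477 counts and a log2 ratio of -0.04 (-0.14 to 0.07). Before centring, each of these complexes had 1 or 2 of the named genes with an interval above 0 and a partner whose interval spanned it. The Mediator genes MED12 and MED13 of the CDK8 and CDK19 complex were also above, at 0.18 (0.07 to 0.30) and 0.26 (0.18 to 0.35). After centring, only CCNT1, CDK13 and CDK8 of all these genes had intervals above 0.

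The remaining transcriptional CDKs and the cyclin L genes had intervals that spanned 0. CDK7, which activates other CDKs and is part of TFIIH, had 260 counts with PAX5 and 238 in the control (log2 ratio 0.02). CDK11A had 324 and 293 counts and CDK11B had 280 and 283. These are near-identical copies whose reads the counting could have split or lost, so their sum is the safer value, 604 and 576 counts with a log2 ratio of -0.04 (-0.20 to 0.13). The splicing-linked cyclins that pair with them, CCNL1 with 346 and 320 counts and CCNL2 with 183 and 174, had log2 ratios of 0.0069 and -0.03.

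Of the CDKs outside these complexes, CDK17 had the largest difference. CDK17, a kinase of the PCTAIRE group (CDK16 to CDK18), had 1308 counts with PAX5 and 891 in the control, a 1.36-fold higher level (1.25 to 1.49) and a log2 ratio of 0.45 (0.32 to 0.57). Its log2 ratio after centring was 0.38. Before centring, it was the only member whose interval stayed above 0 when a biological coefficient of variation of 0.1 was assumed (0.03 to 0.87). With 0.2 assumed, 0 members stayed above. The assumed variation was not combined with centring. Its relatives did not share the direction: CDK16 had 902 and 901 counts, a log2 ratio of -0.10 (-0.24 to 0.03), and CDK18 had 263 and 287 counts, a log2 ratio of -0.23 (-0.48 to 0.01). Per length, CDK17 stood at 17.1 RPKM (16 to 18.3) below CDK16 at 20.5 (19.1 to 21.8) in the control library. In the PAX5 library it stood at 23.3 (22.1 to 24.6) above CDK16 at 19 (17.8 to 20.3), so their order differed between the libraries.

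CDK14, a kinase linked to cyclin Y and Wnt signalling, had 1678 counts with PAX5 and 1421 in the control, a log2 ratio of 0.13 (0.03 to 0.24), and an interval that spanned 0 after centring. CDK5, best known from neurons, had 260 and 269 counts, and CDK10 had 195 and 213. Their log2 ratios of -0.15 and -0.23 had intervals that spanned 0. CDK20 had 12 and 13 counts, too few to show a difference under about 2-fold. CDK15 had 0 counts in both libraries.

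Among the Cip/Kip inhibitors, p27 and p57 transcripts were higher in the PAX5 library and p21 transcripts were not. CDKN1B, which encodes p27, a main restraint on CDK2 in lymphocytes, had 1470 counts with PAX5 and 1095 in the control. The level with PAX5 was 1.25-fold higher (1.15 to 1.35), a log2 ratio of 0.32 (0.21 to 0.43). CDKN1C, which encodes p57 and is imprinted, had 373 and 271 counts, a log2 ratio of 0.36 (0.13 to 0.59). Both are short genes, at 2413 and 1930 bases, and centring on length gave 0.36 and 0.43. CDKN1A, which encodes p21, had 1253 and 1197 counts, a log2 ratio of -0.04 (-0.16 to 0.08). The interval of CDKN1A did not overlap that of CDKN1B. Per length, CDKN1A was above CDKN1B in the control library, at 47.3 (44.7 to 50.1) against 41.1 RPKM (38.7 to 43.6). In the PAX5 library CDKN1B was above, at 51.2 (48.7 to 53.9) against 46 (43.5 to 48.6), though those intervals nearly touch. Summed over the 3 genes, the level was 114 RPKM with PAX5 and 101 in the control.

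Of the 4 INK4 inhibitors, CDKN2C had an interval below 0, CDKN2D spanned 0, and CDKN2A and CDKN2B had no count. CDKN2C, which encodes p18 and had the highest level per length of the INK4 genes, had 2537 counts with PAX5 and 2619 in the control, a log2 ratio of -0.15 (-0.23 to -0.07). Its interval stayed below 0 after centring, at -0.11. CDKN2D, which encodes p19, had 600 and 616 counts, a log2 ratio of -0.14 (-0.31 to 0.02). CDKN2A, which encodes p16 and ARF, and its neighbour CDKN2B, which encodes p15, had 0 counts in both libraries. A count of 0 allows at most 0.252 CPM with PAX5 and 0.272 CPM in the control.

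The genes around CDKN2A and CDKN2B on chromosome 9 were also nearly without counts, an observation made after their values were seen. In the gene order of the RefSeq table, the nearest features with at least 10 counts were ACER2 on one side (80 counts with PAX5 and 87 in the control) and CAAP1 on the other (447 and 445). Between them lay 32 features other than microRNAs, 28 of them protein-coding, and 26 had 0 counts in both libraries. All 32 together had 8 counts with PAX5 and 8 in the control, and the highest had 7 over both. Many are interferon genes, which most unstimulated cells do not express. The stretch also holds MTAP, a methionine salvage enzyme that most tissues express, with 1 and 2 counts, KLHL9, a ubiquitin ligase adaptor, with 2 and 0, and FOCAD with 1 and 1. Just outside it, the ribosomal protein gene RPS6 had 28980 and 31678 counts. Counts of RNA do not show whether these genes are present in the genome, and this was not tested.

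**Figure D4:**
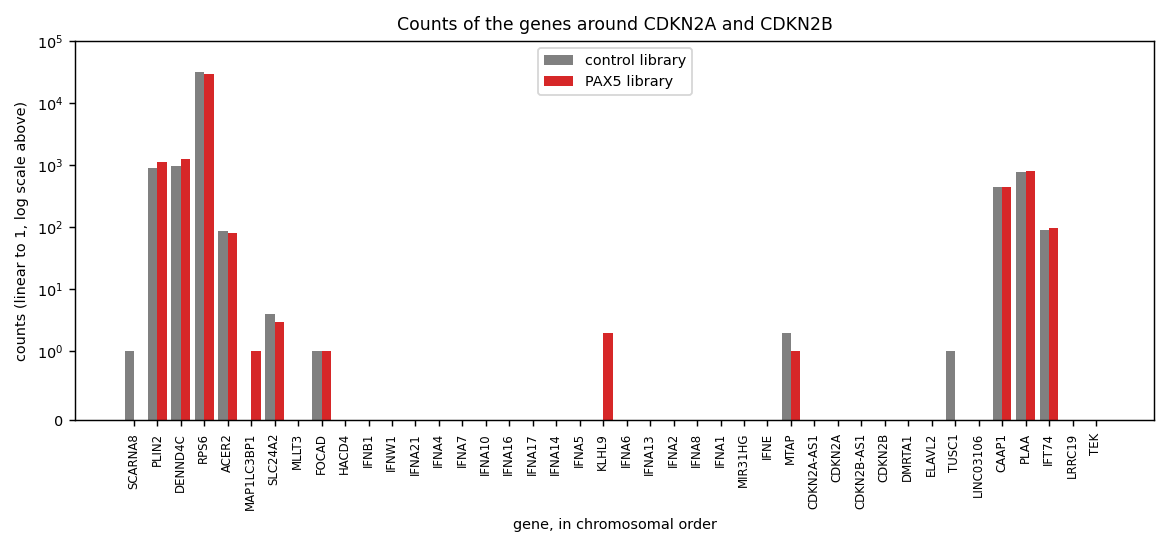
Counts per gene in the control library (grey) and the PAX5 library (red), for genes in chromosomal order around CDKN2A and CDKN2B. The count axis is linear up to 1 and logarithmic above. From MAP1LC3BP1 to LINC03106 no gene has more than 4 counts in a library, while RPS6, CAAP1 and PLAA at the flanks have 445 or more.

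The pocket proteins were the last group with members above 0. RB1, the retinoblastoma protein gene, had 5143 counts with PAX5 and 4072 in the control, a log2 ratio of 0.23 (0.17 to 0.29). RBL1, which encodes p107, had 942 and 780 counts, a log2 ratio of 0.17 (0.03 to 0.31). RBL2, which encodes p130 and is the pocket protein of quiescent cells, had 1552 and 1366 counts, a log2 ratio of 0.08 (-0.03 to 0.18). These are long genes (4398 to 4886 bases), and after centring RB1 kept 0.16 with its interval above 0 while RBL1 at 0.11 spanned 0. Per length, RB1 was the most abundant of the 3, at 90.6 RPKM (88.2 to 93.2) with PAX5 and 77.2 (74.9 to 79.6) in the control. In the control library RB1 was below CDKN2C at 95.7 (92 to 99.4), and its interval overlapped that of CDK9 at 82.3 (79 to 85.8). In the PAX5 library it was above CDK9 at 78.7 (75.5 to 81.9), while its interval overlapped that of CDKN2C at 86.1 (82.8 to 89.5).

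By role, the median log2 ratio was highest for the Cip/Kip inhibitors at 0.32 (3 measured genes), followed by the pocket proteins at 0.17 (3), the transcriptional CDKs at 0.11 (8) and the transcriptional and other cyclins at 0.08 (6). It was -0.06 for the cell cycle cyclins (6), -0.10 for the cell cycle CDKs (3), -0.15 for the INK4 inhibitors (2) and -0.15 for the other CDKs (7). The members of this last role with intervals off 0, CDK14 and CDK17, were both above it, the mean of the role was -0.05, and its summed counts were 4618 and 3995. Centring on length left these signs in place except for the cell cycle cyclins, whose median was then 0.01. Some members overlap another gene of the table in RefSeq: 10 of 43 do, such as CCNA2 with EXOSC9, CDK19 with AMD1 and RB1 with LPAR6. Without a known strand setting their reads cannot be told fully apart. LPAR6 had 239 and 202 counts, few beside those of RB1. Other overlapping genes had more counts than the member. AMD1 had 2241 and 2072 beside CDK19 with 1510 and 1214, and INTS8 had 1051 and 906 beside CCNE2 with 594 and 613. CCDC125 had 308 and 273 beside CDK7 with 260 and 238. The ratios of these members are less certain for that reason.

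The partners, regulators and targets of these genes were taken from 7 lists, and no gene of any list differed by a bound at or beyond 2-fold. The counts of intervals off 0 below are to be set beside 18.7% of all features above 0 and 16.8% below. After centring on length these shares were 15.8% and 14.4%, taken only over all features with at least 10 counts. Among features with at least 1000 counts, 28.7% were above 0 and 25% below before centring, and many list genes were that abundant. Of 20 measured partners outside the name rule, 3 had intervals above 0 and 4 below, with a median log2 ratio of -0.02, and after centring 4 were above and 3 below. CKS2, a small CDK-binding subunit, had 1057 counts with PAX5 and 1243 in the control (-0.34, and -0.09 after centring on its length of 613 bases), and CDK2AP1, which binds CDK2, had 3097 and 3392 (-0.24). On the other side CABLES2 had 796 and 636 counts (0.22) and CDK2AP2 had 681 and 551 (0.20).

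Genes for CDK phosphorylation and for the turnover of cyclins and inhibitors had the lowest median of the lists, -0.11, with 4 of 20 above 0 and 8 below. After centring the median was -0.07, with 3 above and 5 below. RBX1, the RING subunit of SCF ubiquitin ligases, had 915 and 1132 counts (-0.41, and -0.16 after centring on its length of 521 bases) and UBE2C, an E2 enzyme of the anaphase-promoting complex, had 1629 and 1790 (-0.24). FBXW7, which targets cyclin E, had 1900 and 1575 counts (0.16), and FBXO5, an inhibitor of the anaphase-promoting complex, had 1681 and 1393 (0.17).

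E2F, DP and DREAM or MuvB genes had 6 of 17 above 0 and 2 below, with a median of 0.07, and after centring 6 above and 4 below. E2F7, an atypical E2F that represses, had 812 counts with PAX5 and 594 in the control (0.35), and E2F2 had 2906 and 2247 (0.27). E2F1, an activator E2F, had 1597 and 1795 counts (-0.27) and FOXM1, a regulator of mitotic genes, had 1749 and 1772 (-0.12). E2F-regulated replication genes had 3 of 16 above 0 and 4 below with a median of -0.02, and 3 above and 1 below after centring. Of these, RRM1, a ribonucleotide reductase subunit, had 6479 and 5572 counts (0.11). The late cell cycle genes had 5 of 16 above 0 and 3 below with a median of 0.02, and 3 above and 3 below after centring. Among them, MKI67, the proliferation marker Ki-67, had 15453 and 10563 counts (0.44) with a length of 12497 bases and 0.21 after centring, while UBE2S had 651 and 799 (-0.40) with a length of 1191 bases and -0.27 after centring.

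Regulators of CDK inhibitor genes had 5 of 11 measured members above 0 and 2 below, with a median of 0.06. After centring 2 were above and 2 below, with a median of 0.02. FOXO1, a forkhead factor that activates CDKN1B, had 5043 counts with PAX5 and 3347 in the control, a log2 ratio of 0.49 (0.42 to 0.55) and 0.38 after centring. MDM2, a ubiquitin ligase, had 6977 and 5272 counts (0.30, and 0.14 after centring), and ZBTB17, a MYC partner that binds inhibitor promoters, had 298 and 337 (-0.28). The list of elongation partners of CDK9 and CDK12 also holds the Mediator genes MED12 and MED13 and genes of TFIIH. It had 6 of 12 genes above 0, MED12 and MED13 among them, and 1 below. After centring 2 were above and 2 below, and the median went from 0.11 to -0.01. The scaffold AFF4 had 2188 and 1505 counts (0.43, and 0.20 after centring) and POLR2A, the largest polymerase II subunit, 5600 and 4218 (0.30, and 0.14 after centring), while the elongation factor ELL2 had 215 and 249 (-0.32).

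**Figure D5:**
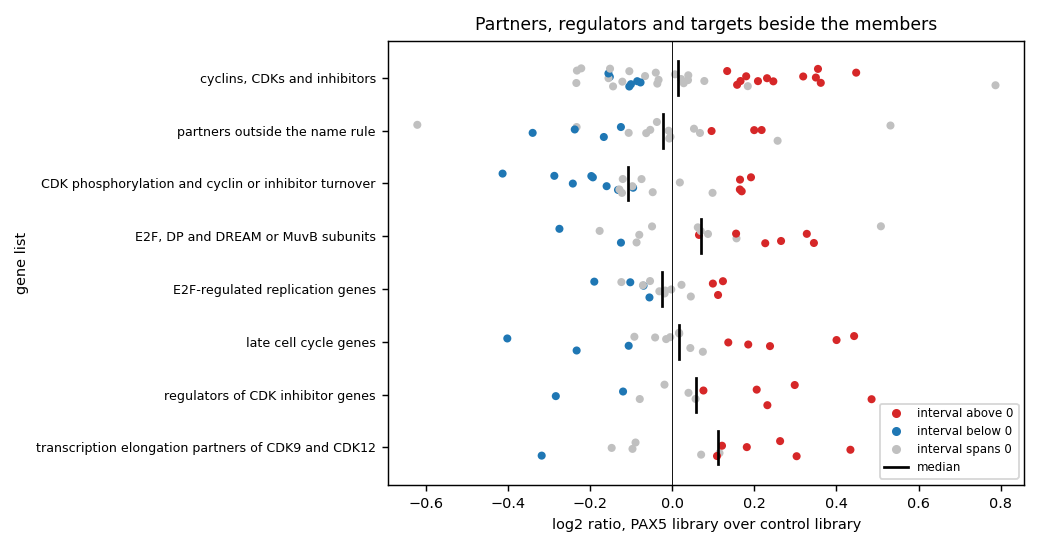
Log2 ratio (PAX5 over control) of each measured gene in 8 rows, the cyclins, CDKs and inhibitors first and then the 7 lists. Colours give intervals above, below or spanning 0, black strokes give medians, and vertical scatter within a row has no meaning. Medians lie between -0.11 and 0.11.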

How the data were processed

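Total RNA of 2 libraries was sequenced, 1 per group, with groups taken from the genotype labels. The authors deposited raw counts of reads per gene with a length in bases, made with featureCounts on the hg19 build (GRCh37), as the submitters' processing notes state. Not given in the sources used here are its version, the strand setting, the aligner and how multi-mapping reads were counted. The series table and the files of single libraries held the same 51404 values.

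Symbols came from RefSeq (GRCh38.p14) by Entrez number and matched 23696 of 25702 features. TMM factors from edgeR 4.0.16 (R 4.3.3) were 0.9954 for PAX5 and 1.0046 for the control, from features with at least 10 counts. With 1 library per group no gene could be tested in edgeR or DESeq2. Ratios carry exact 95% Clopper-Pearson intervals (scipy 1.17.1), and intervals and floors (3 counts) cover counting error only, since PCR copies are not independent molecules. For members with at least 100 counts the interval reached at most 0.31 to each side on the log2 scale, and 0.06 for the deepest member. A gene was called when its interval lay wholly at or past 2-fold. The intervals were tested on simulated counts that held counting error only, so that test cannot show how they cover variation between cultures.

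All members are named, with counts and ratio where the interval excluded 0 or the ratio reached 1.5-fold. List genes named are the 2 with bounds farthest from 0 on a side, or fewer, with CCNK, CCNC, MED12 and MED13 added as partners. The values of 1 list gene are not reported here. The members and lists were chosen with earlier results of these data known. Alternatives were other scalings, count minimums and thresholds, centring on length, and an assumed biological coefficient of variation.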

Additional observations from a re-analysis of the deposited data

How the results depend on the processing

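The counts of 0 members at the 2-fold bound, higher or lower, held under scaling by total counts, DESeq2 1.42.0 size factors or upper-quartile factors, with no count minimum or one of 50, after centring on length, with a point ratio at 2-fold or a bound at 1.5-fold, and with an assumed biological coefficient of variation. Counts of intervals off 0 were less firm. The 12 members above 0 became 1 with an assumed coefficient of variation of 0.1 and 0 with 0.2, and the 6 below became 0 with either, so such intervals hold for these 2 libraries only. Upper-quartile scaling, which lowered every log2 ratio by 0.03, gave 11 members below 0 and 9 above. DESeq2 size factors, which raised every log2 ratio by 0.0072, gave 4 below and 12 above. CCNB1 and CCNB2, with upper bounds of -0.0054 and -0.0006, then no longer lay below 0. Centring on length turned CCNB2 to 0.0234 and CDK12 to -0.0503. It moved 4 of 38 members past their own intervals and changed the sign of 3. The other scalings moved none past its interval, but total counts changed the sign of 1 and upper-quartile factors of 3, all with intervals that span 0. No paired analysis was possible because each group has 1 library.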
